A study of Mus musculus with 7 samples.

Results

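The comparison described here is between 2 pairs of libraries of unbound hippocampal RNA from mice, titled UBS (replicates 7 and 8) and UBGS (replicates 8 and 9). The libraries were chosen by their titles and by the treatment label Unbound, and they are 4 of the 7 libraries of the study. The other 3 are bound libraries and stayed out of every test. The study used translating ribosome affinity purification (TRAP): cells that express Cre make a ribosomal protein with an EGFP tag, and an antibody to the tag captures their ribosomes and the RNA on them. Mice carrying GAD2 Cre were crossed with L10-EGFP mice, per the labels, tissue was hippocampus, and 2 hippocampi were pooled for each purification. Unbound RNA is the RNA that was not pulled down, so it stems from all cells of the tissue. All 7 libraries share that genotype and tissue as far as the labels go. The labels do not say what UBS and UBGS stand for, which Gad2-Cre line was used, or the strain, substrain, age, sex, animal or batch of a library. A difference between the series can therefore come from anything that the titles stand for, which cannot be told apart here. Nothing says that the libraries came from separate animals, so the p-values rest on the scatter of these 4 libraries, which may be technical in part.

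As background, Gad2 and Gad1 make GABA, the main inhibitory transmitter of the hippocampus, and Cck encodes a neuropeptide of a class of hippocampal interneurons that is also made by excitatory neurons. Class I genes of the major histocompatibility complex, named H2 in the mouse, are among the most variable genes between mouse strains. Cwc22 encodes a splicing factor that helps to load the exon junction complex onto spliced RNA, and the genome segment that holds it is known to vary in copy number among mouse strains. The mitochondrial genome passes through the mother and also differs between strains and substrains at a few bases.

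The sequences below belong to the genes on which the comparison turned. They are reference transcripts from GENCODE M21 (GRCm38, the assembly of mm10), not sequence read from these libraries, and counts per gene do not show which letters a library carried. The first pair shows a stretch of 150 bases, from 568 to 717 of the Cwc22 transcript and from 181 to 330 of that of the copy Gm13691. This stretch was picked because, among those without gaps, it holds the most differences, so it shows the pair at its least alike. Capitals mark the 8 bases at which they differ. The third is the whole mitochondrial transfer RNA gene mt-Tr, with a run of 8 A in capitals whose length is known to vary among mouse strains, and the fourth the first 60 bases of mt-Nd3, with the first codon in capitals.
Cwc22: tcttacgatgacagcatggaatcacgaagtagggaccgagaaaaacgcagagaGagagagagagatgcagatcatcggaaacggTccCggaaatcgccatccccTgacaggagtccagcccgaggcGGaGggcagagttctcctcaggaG
Gm13691: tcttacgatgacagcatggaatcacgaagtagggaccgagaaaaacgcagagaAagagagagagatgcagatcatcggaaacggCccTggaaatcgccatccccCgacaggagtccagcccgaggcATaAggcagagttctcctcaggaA
mt-Tr: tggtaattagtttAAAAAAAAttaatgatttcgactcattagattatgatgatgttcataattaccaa
mt-Nd3: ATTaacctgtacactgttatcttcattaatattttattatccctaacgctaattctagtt

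Totals ranged from 40465007 to 47984798 counts over the 4 libraries. The UBS pair differed by 30.4 times the counting variance (a chi-square divided by its degrees of freedom, over genes of 20 or more counts) and by 20.1 times without mitochondria-encoded genes. The UBGS pair differed by 5.57 and 4.42 times, and pairs across the series by 25.04 to 39.04 times (19.03 to 36.4 without mitochondria-encoded genes). UBS replicate 8 was nearer to UBGS replicate 8 (25.04 and 19.03 times) than to UBS replicate 7, so the UBGS libraries grouped together and the UBS libraries did not. Mitochondria-encoded RNA took 32.4% and 28.5% of counts in the UBS libraries and 31.5% and 32.9% in the UBGS libraries. Gm42418, which overlaps ribosomal RNA sequence, took 6.02% and 5.91% against 4.33% and 3.95%. The tissue label was borne out in every library by genes of the main hippocampal cell types: Prox1 of dentate granule cells stood at 281 and 264 CPM (read counts scaled to the library size) in UBS and 263 and 256 CPM in UBGS libraries, and Wfs1 of CA1 pyramidal cells at 76.1 and 62.3 against 82.3 and 80.3 CPM. The Y-linked gene Ddx3y had 614 and 835 counts in the UBS and 658 and 701 in the UBGS libraries, and Xist of the inactive X chromosome had 12 and 24 against 9 and 9, so that all 4 held RNA of the Y chromosome and little Xist.

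Of 19256 genes tested, 44 differed between the series, which is 0.229% of genes (edgeR quasi-likelihood test, Benjamini-Hochberg adjusted p under 0.05, two-sided). Of these, 18 were higher in UBS (0.0935%) and 26 lower (0.135%). At an unadjusted p under 0.05, 3233 genes (16.8%) differed, and the median log2 fold change of all genes, UBS minus UBGS, was 0.00. The called genes differed by 1.43-fold to 27.5-fold, 29 of them by at least 2-fold. In all 44 the libraries of one series lay above both of the other, as they did in 51.6% of all genes tested. Several calls repeat each other: when genes whose counts lay within 2% of each other in all 4 libraries were joined, 36 separate measurements were left, 18 in each direction. Among the 44 genes, 29 are annotated as protein-coding and 9 as processed pseudogenes.

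The number of calls rested on single libraries. Without UBGS replicate 8 or 9 it was 16 or 19, and without UBS replicate 7 or 8, where the spread came from the close UBGS pair alone, it was 4684 or 7389. The lone library of a series was assumed to vary like the others in these fits. DESeq2 called 301 genes (1.56%), 185 higher (0.961%) and 116 lower (0.602%) in UBS, and all 44 were among them. In each of the 11 settings tried, 15 of the 44 were called wherever they were tested: Cwc22, its 7 copies, Cck, mt-Nd3, H2-T10, BC023719, Mid1, AA465934 and Gm11814. A permutation test of 2 against 2 libraries cannot give a two-sided exact p below 0.333, and the calls rest on a spread that edgeR estimates with information from all genes.

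**Figure D1:**
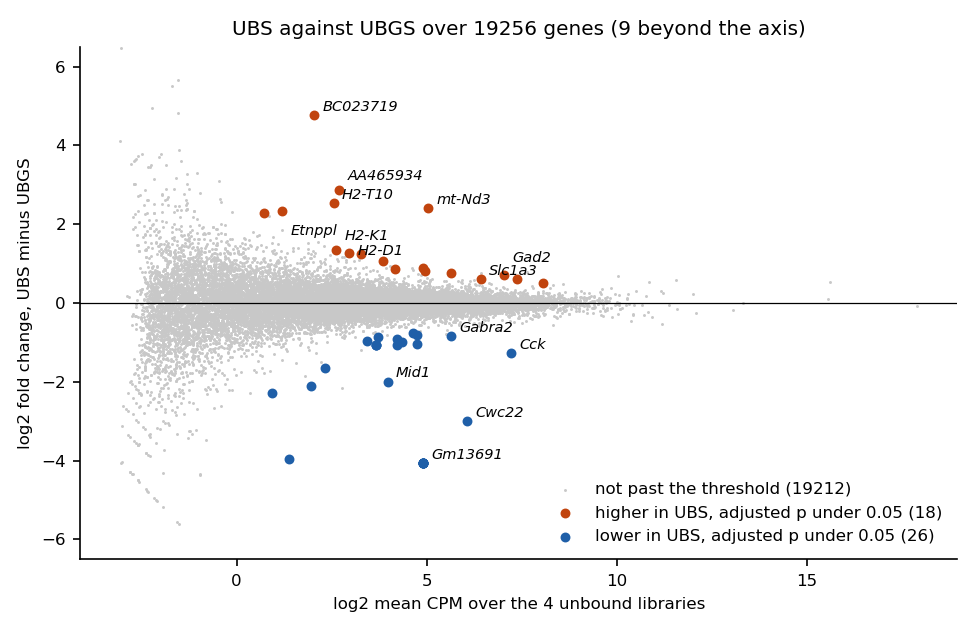
Log2 fold change (UBS minus UBGS, vertical axis) against the log2 mean CPM over the 4 unbound libraries (horizontal axis), with 1 dot per tested gene. The 18 called genes higher in UBS and the 26 lower ones are coloured, 19212 other genes are grey, and 9 genes lie beyond the vertical axis. Cwc22, its copies, BC023719, mt-Nd3 and Mid1 stand farther from 0 than most genes of their level.

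Cwc22 showed the lowest adjusted p of all genes together with its copies. It stood at 15.5 and 14.2 CPM in UBS and 117 and 120.1 CPM in UBGS libraries, from 599 and 691 against 5649 and 5536 counts. Both UBGS libraries were thus about as high as each other and far above both UBS libraries, a 7.999-fold gap (log2 −3.0, SE 0.08, edgeR adjusted p = 0.000144). Cwc22 (ENSMUSG00000027014) lies on the minus strand of chromosome 2 from 77881159 to 77946375 (mm10), and the value covers all its exons.

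Genes of one cluster, Gm13691 and Gm13693 to Gm13698 (7 in all), matched the Cwc22 transcript at 96.9% identity over 2514 aligned bases, gaps included. The cluster lies from 83955693 to 83993045 on the same chromosome, and each copy is annotated as protein-coding with a single transcript. All 7 were called lower in UBS. Gm13691 stood at 3.84 and 2.98 CPM in UBS and 55.3 and 58.7 CPM in UBGS libraries, a 16.8-fold gap (log2 −4.07, SE 0.13, edgeR adjusted p = 0.000144). In 6 copies the counts were identical in all 4 libraries, and Gm13695 was at most 8 counts away from them. The 7 calls are therefore 1 measurement entered 7 times, and reads of Cwc22 and of its copies may have been counted for each other, which makes the split between them uncertain.

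A copy held 24.9% and 20.98% of the counts of Cwc22 in the UBS libraries and 47.3% and 48.8% in the UBGS libraries. The share also separated the series, so the copies were lower in UBS by more than Cwc22 itself. Gm13727, whose exons overlap those of Cwc22 by 44.1% of their length, had 0 counts in both UBS libraries and 55 and 50 in the UBGS libraries. Against a floor of 3 counts over the UBS pair it was at least 32.5-fold lower there (edgeR adjusted p = 0.0585, not past the threshold). More distant matches gave smaller differences: Gm7340 and Hdx, at 84.9% identity each, stood at log2 −0.73 and −0.33 (edgeR adjusted p = 0.14 and 0.194). The pseudogene Gm7340 lies within the bounds of Hdx on the X chromosome, so both matches may stem from the same sequence and share reads.

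The genes that work with Cwc22 were not called. Of 21 genes of Cwc22 and its splicing partners, all tested, 1 was called, Cwc22 itself, beside 0.229% of all genes. At an unadjusted p under 0.05, 2 were higher and 3 lower, Cwc22 among these, beside 8.73% and 8.05% of all genes. The median log2 fold change was −0.07 (−0.03 without UBS replicate 7) beside 0.00 over all genes. Eif4a3, the core helicase that Cwc22 brings to the spliceosome, stood at 18.3 and 18.1 against 18.2 and 18.6 CPM (log2 −0.01, edgeR adjusted p = 0.952). The spliceosome core Prpf8 stood at 130.0 and 133 against 113 and 111 CPM (log2 0.23, edgeR adjusted p = 0.188) and the branch site factor Sf3b1 at 97.7 and 97.7 against 109.5 and 115 CPM (log2 −0.20, edgeR adjusted p = 0.221).

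In the H2 region on chromosome 17, 4 genes were higher in UBS. H2-K1 and H2-D1 encode the classical class I proteins that show peptides to T cells. H2-K1 stood at 9.52 and 8.05 CPM in UBS and 3.58 and 3.34 CPM in UBGS libraries (log2 1.34, SE 0.15, edgeR adjusted p = 0.0471), and H2-D1 at 10.96 and 10.97 against 4.78 and 4.23 CPM (log2 1.28, SE 0.13, edgeR adjusted p = 0.0322). The levels are low but each UBS library was above both UBGS libraries. Both calls were lost without UBGS replicate 8 (edgeR adjusted p = 0.253 for H2-K1 and 0.189 for H2-D1) and without UBGS replicate 9 (0.212 and 0.186), and with library totals (0.0691 and 0.0691) or a 1.5-fold minimum (0.306 and 0.24), at fold changes that stayed between 1.20 and 1.46 on the log2 scale over the 4 fits with a library left out.

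The larger differences were at the T end of the region. H2-T10, a nonclassical class I gene, stood at 9.11 and 10.9 against 1.94 and 1.52 CPM (log2 2.53, SE 0.19, edgeR adjusted p = 0.0121). BC023719 had 285 and 413 counts in the UBS libraries and 14 and 13 in the UBGS libraries, a 27.5-fold difference that was the largest of the 44 (log2 4.78, SE 0.22, edgeR adjusted p = 0.000845). It is annotated on the strand opposite to H2-T10, and its exons overlap those of H2-T10 and the pseudogene H2-T-ps by 94.7% of their length. Whether strand was used in counting is not given in the sources used here, so the 2 genes may share reads, and both values are uncertain. H2-T24, a neighbour of the same family, lay the other way at 7.22 and 4.75 against 13.6 and 13.5 CPM (log2 −1.18, edgeR adjusted p = 0.116, DESeq2 adjusted p = 3.9e-05), so the region did not shift in 1 direction.

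Of 45 genes whose symbol starts with H2, 20 had enough counts to be tested. Of these, edgeR called 3 higher and 0 lower, beside 0.0935% and 0.135% of all genes, and DESeq2 called 3 higher and 1 lower (H2-T24). At an unadjusted p under 0.05, 6 were higher and 3 lower, beside 8.73% and 8.05% of all genes. The median log2 fold change was 0.33 (0.00 over all genes). That median was 0.51 without UBGS replicate 8, 0.17 with limma-voom and 0.74 without a low-count filter. H2-T22 (7.74 and 8.53 against 6.699 and 5.84 CPM, edgeR adjusted p = 0.269) and H2-DMa (9.54 and 8.79 against 10.6 and 10.9 CPM, edgeR adjusted p = 0.365) did not pass. In the list of class I assembly and class II genes, 20 were tested, 2 were called higher (H2-K1 and H2-D1) and 0 lower. Here 7 were higher and 1 lower at an unadjusted p under 0.05, and the median was 0.31. B2m, the light chain of every class I protein, stood at 35 and 37.2 against 28.1 and 29.4 CPM (log2 0.33, edgeR adjusted p = 0.178). Tapbp, the class I loading chaperone tapasin, stood at 9.49 and 9.18 against 5.21 and 5.77 CPM (log2 0.77, edgeR adjusted p = 0.114), and Nlrc5, the activator of class I transcription, had 31 and 49 counts against 5 and 7 (log2 2.80, edgeR adjusted p = 0.116). The class II invariant chain Cd74 stood at 5.57 and 5.63 against 3.83 and 3.62 CPM (log2 0.59, edgeR adjusted p = 0.182). These genes had positive fold changes without passing edgeR, whereas DESeq2 called Tapbp and Nlrc5. Of 23 interferon response genes tested, 0 were called by edgeR and 0 by DESeq2, 7 had an unadjusted p under 0.05, all higher in UBS, beside 8.73% of all genes in that direction, and the median was 0.30 (0.19 without UBS replicate 8).

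mt-Nd3, which encodes a subunit of respiratory complex I, was higher in UBS. It stood at 55.4 and 55.6 CPM in UBS and 9.95 and 10.9 CPM in UBGS libraries, from 2148 and 2704 against 481 and 502 counts. The 2 libraries of each series were nearly equal and the series were 5.32-fold apart (log2 2.41, SE 0.09, edgeR adjusted p = 0.000193). As a share of the counts of the mitochondrial protein-coding genes, mt-Nd3 made up 0.342% (95% exact Clopper-Pearson interval 0.328 to 0.357) and 0.312% (0.300 to 0.324) in the UBS libraries. In the UBGS libraries it made up 0.0511% (0.0466 to 0.0559) and 0.0532% (0.0486 to 0.0580). These intervals cover counting error only, and the share, which does not depend on the scaling between libraries, separated the series too.

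The gene beside it was the nearest to it in fold change. mt-Tr, transfer RNA for arginine, starts at base 9808 of the mitochondrial genome, where mt-Nd3 ends at 9806. It had 229 and 241 counts in the UBS and 109 and 107 in the UBGS libraries (log2 1.24, SE 0.18, edgeR adjusted p = 0.0866, DESeq2 adjusted p = 0.0026). Of the 37 mitochondria-encoded genes, all tested, mt-Nd3 was the 1 called, beside 0.229% of all genes. At an unadjusted p under 0.05, 3 were higher and 7 lower, beside 8.73% and 8.05% of all genes. Fold changes were positive in 12 and negative in 25, and the median was −0.15 (−0.09 without UBS replicate 7). The other complex I genes lay from −0.47 (mt-Nd1) to 0.01 (mt-Nd2) and none of them passed, and the ribosomal RNA mt-Rnr2, which alone took 21.95% to 25.97% of counts, stood at −0.08. The difference at mt-Nd3 and mt-Tr therefore stood apart from the level of mitochondrial RNA as a whole.

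**Figure D2:**
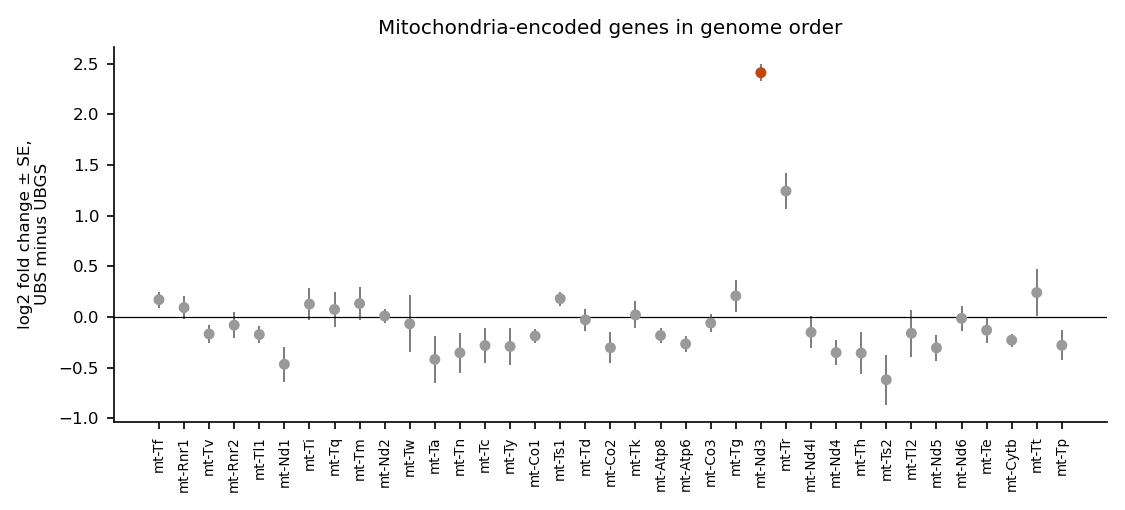
Log2 fold change (UBS minus UBGS, vertical axis, with its SE as bars) of the 37 mitochondria-encoded genes in genome order (horizontal axis). mt-Nd3 at 2.41 is the called gene (coloured) and its neighbour mt-Tr follows at 1.24, while the other 35 lie between −0.62 and 0.24.

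Genes around these loci were examined for further differences, since neighbours on a chromosome are inherited together. Within 5 Mb of Cwc22, 63 other genes were tested and 0 were called by edgeR, 14 (22.2%) had an unadjusted p under 0.05 beside 16.8% of all genes, and DESeq2 called 1, Gm13727. Its nearest protein-coding neighbours Zfp385b and Ube2e3 stood at log2 −0.33 and −0.12 (edgeR adjusted p = 0.167 and 0.473). Beside the copies, Calcrl and Tfpi stood at 0.62 and −0.35 (edgeR adjusted p = 0.159 and 0.427). Outside Cwc22 and the copies the surrounding 5 Mb thus held no call.

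The H2 region was the only place where 4 measurements, separate by the 2% rule, fell within 2 Mb steps of each other. They lay from 33996017 to 36121465 on chromosome 17. H2-T10 and BC023719, which may share reads, are among them, so fewer may be independent. Within 5 Mb of H2-D1, 208 other genes were tested and 3 were called (the other 3 H2 region genes). An unadjusted p under 0.05 was seen in 54 (25.96%), beside 16.8% of all genes. Genes that lie directly beside H2-K1 and H2-D1 did not pass: Vps52 stood at log2 −0.01, Ring1 at −0.15, Atp6v1g2 at 0.02 and Ddx39b at −0.03. DESeq2 called 11 genes in that window, among them the complement gene C4b (4.38 and 6.33 against 2.73 and 2.52 CPM, log2 1.03, edgeR adjusted p = 0.156).

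Around Gad2, 147 other genes within 5 Mb were tested and 0 were called by edgeR, while DESeq2 called 2, Bmi1 and Egfl7. Of the 147, 30 (20.4%) had an unadjusted p under 0.05, beside 16.8% of all genes. Around Cck, 89 genes were tested and 0 were called by edgeR or DESeq2. Of these, 10 (11.2%) had an unadjusted p under 0.05, again beside 16.8% of all genes. Chromosome 2 held 15 of the 44 calls, 0.908% of its 1652 tested genes, beside 0.229% of all genes. These were 7 separate measurements, as some of the genes, the Cwc22 copies among them, repeat the values of others.

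**Figure D3:**
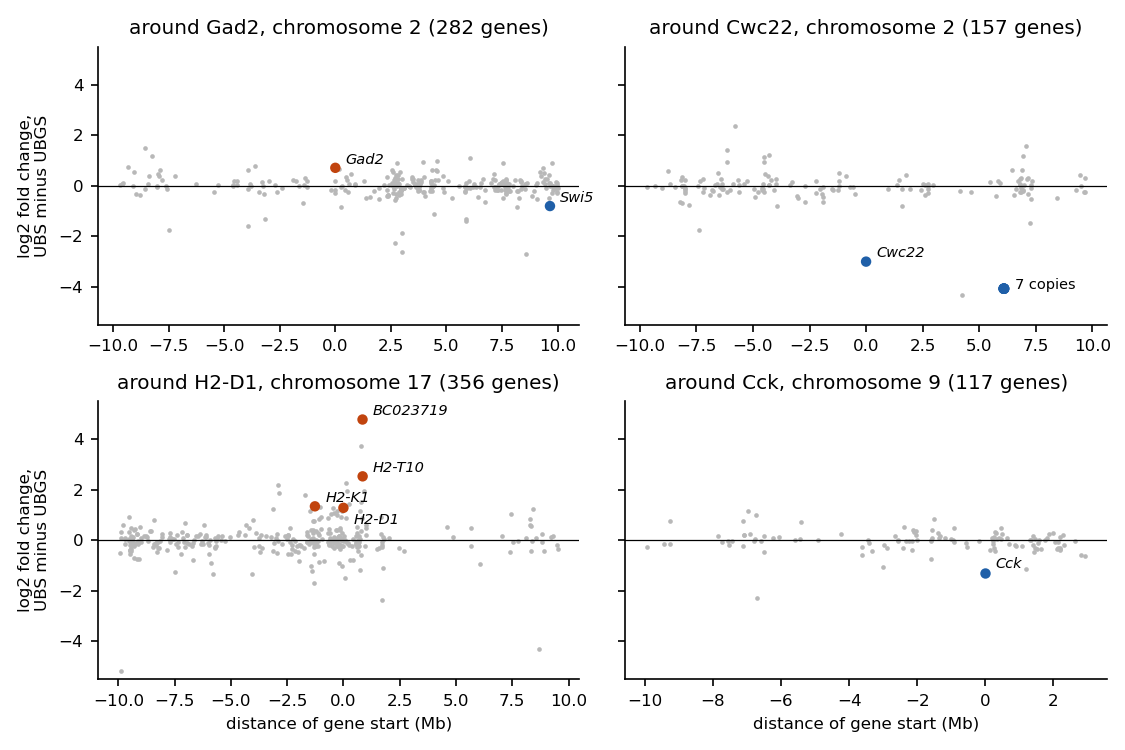
Log2 fold change (UBS minus UBGS, vertical axes) of tested genes within 10 Mb of the start of Gad2, Cwc22, H2-D1 and Cck (horizontal axes, distance between gene starts in Mb), with called genes coloured and named. Cck is the only called gene of its window, Gad2 is called together with Swi5 near the end of its window, Cwc22 shares its window with its 7 copies, and 4 called genes lie in the H2 window.

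Gad2, the gene from which Cre is driven in these mice, was the only gene of the GABAergic list past the threshold. It stood at 166 and 160.0 CPM in UBS and 98.3 and 101 CPM in UBGS libraries, from 6453 and 7788 against 4756 and 4632 counts, a 1.64-fold gap (log2 0.71, SE 0.06, edgeR adjusted p = 0.022). It lies on chromosome 2 from 22622205 to 22693874 (mm10), and no exon of another gene overlaps it. The call was lost without UBGS replicate 8 (edgeR adjusted p = 0.189), without UBGS replicate 9 (0.0684) and against a 1.5-fold minimum (0.798). The fold change over fits with a library left out ranged from 0.69 to 0.74 on the log2 scale, so what moved was the error and not the size.

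Gad1, the other GABA-making enzyme, stood at 60.9 and 70.9 against 59.2 and 56.8 CPM, with UBS replicate 7 close to the UBGS libraries (log2 0.18, edgeR adjusted p = 0.366). Without that library Gad1 passed, at log2 0.29 (edgeR adjusted p = 0.0032). Gad2 per Gad1 was 2.73 and 2.26 in the UBS libraries, 1.66 and 1.77 in the UBGS libraries and 1.53, 1.44 and 1.33 in the bound libraries. The ratio of the 2 genes thus separated the series, but it contains the Gad2 difference and is not separate evidence. The vesicular GABA transporter Slc32a1 stood at 14.3 and 14.2 against 13.6 and 12.4 CPM (edgeR adjusted p = 0.569). The transcription factors Dlx1 and Lhx6 stood at log2 −0.11 and −0.06, and the peptides Sst and Npy at 0.21 and 0.19 (edgeR adjusted p = 0.555, 0.78, 0.296 and 0.438). Log2 fold changes in the GABAergic list ran from −1.28 to 0.71, the highest being that of Gad2. Of 30 GABAergic genes, all tested, 1 was called higher and 0 lower, beside 0.0935% and 0.135% of all genes. At an unadjusted p under 0.05, 4 were higher and 1 lower, beside 8.73% and 8.05% of all genes. The median was −0.02. It was 0.02 without UBS replicate 7, 0.08 without UBS replicate 8 and 0.06 without UBGS replicate 8, so its sign was not stable. In bulk RNA, fewer cells of a type and less RNA per cell cannot be told apart.

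Cck was lower in UBS. It stood at 83.9 and 90.2 CPM in UBS and 223 and 199.6 CPM in UBGS libraries, from 3253 and 4391 against 10784 and 9199 counts, a 2.43-fold gap (log2 −1.28, SE 0.08, edgeR adjusted p = 0.00476). The call held in every setting tried, with log2 fold changes from −1.35 to −1.20 over fits with a library left out. Cck lies on the minus strand of chromosome 9 from 121489824 to 121495694 (mm10), and its neighbours Trak1 and Vipr1 stood at log2 −0.02 and −0.38 (edgeR adjusted p = 0.882 and 0.272).

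Genes that share cells or steps with Cck were not called by edgeR. Of 15 genes of CCK and VIP interneurons tested, Cck was the 1 called, beside 0.229% of all genes. At an unadjusted p under 0.05, 1 was higher and 4 were lower, Cck among these, beside 8.73% and 8.05% of all genes. The median was −0.09. It was −0.32 without UBS replicate 7, −0.06 without UBS replicate 8 and −0.21 without a low-count filter. The cannabinoid receptor Cnr1, abundant in CCK interneurons, stood at 133 and 144 against 147 and 149 CPM (log2 −0.09, edgeR adjusted p = 0.507), and the peptide gene Vip at 2.17 and 3.14 against 4.01 and 3.78 CPM (log2 −0.54, edgeR adjusted p = 0.298). The complexin gene Cplx3 stood at 2.63 and 2.57 against 5.21 and 5.14 CPM (log2 −0.99, edgeR adjusted p = 0.105) and was called by DESeq2 alone. Of 13 genes for the CCK peptide, its receptor Cckbr and peptide processing that were tested, Cck was again the 1 called (median −0.14). In this list 0 were higher and 4 lower at an unadjusted p under 0.05. Cckbr stood at 4.204 and 4.89 against 6.12 and 6.03 CPM (log2 −0.42, edgeR adjusted p = 0.261), and Cckar was too low to be tested. The processing enzyme Cpe stood at 381 and 541 against 432 and 439.8 CPM and the granule protein Chgb at 214 and 197 against 238 and 236 CPM (edgeR adjusted p = 0.817 and 0.23). Of 18 neuropeptide genes tested, 1 was higher and 4 were lower at an unadjusted p under 0.05. None besides Cck was called, and the median was −0.11 (−0.26 and −0.07 without UBS replicate 7 or 8). Pnoc, prepronociceptin, was lower by about as much as Cck, at 1.24 and 1.07 against 2.87 and 2.73 CPM, without passing the threshold (log2 −1.28, edgeR adjusted p = 0.118).

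Gabra2 and Mid1 were also lower in UBS. Both are known to vary between laboratory mouse strains or substrains and were grouped here after their values were seen. Whether strain had a part in these differences was not tested. Gabra2, a GABA-A receptor subunit gene, stood at 34.8 and 37.4 against 64.3 and 64.5 CPM (log2 −0.83, SE 0.07, edgeR adjusted p = 0.0229). The call was lost without UBGS replicate 8 (edgeR adjusted p = 0.11), with library totals (0.0819) and against a 1.5-fold minimum (0.435). The subunit genes in the same cluster on chromosome 5 did not pass, with Gabra4 at 60.98 and 58.7 against 59.3 and 60.03 CPM and Gabrb1 at 49.96 and 46.8 against 42.7 and 40.7 CPM (edgeR adjusted p = 0.983 and 0.254). Nor did Gabra5 (log2 0.11, edgeR adjusted p = 0.562) on another chromosome. Mid1, a ubiquitin ligase gene that spans the edge of the pseudoautosomal region in laboratory mice, stood at 5.78 and 6.78 against 25.8 and 24.4 CPM, a 3.98-fold gap (log2 −1.99, SE 0.12, edgeR adjusted p = 0.00338). Other genes overlap 17.9% of its exon length. Mid1-ps1, a copy on the Y chromosome, lay in the same direction at 1.78 and 3.23 against 11.8 and 10.6 CPM (edgeR adjusted p = 0.0585), and reads of Mid1 and its copies may have been counted for each other.

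Most astrocyte genes had higher levels in both UBS libraries than in either UBGS library, and 2 passed the threshold. Of 25 astrocyte genes, all tested, 2 were called, both higher, and 20 had an unadjusted p under 0.05, all higher, beside 8.73% of all genes in that direction. The median was 0.43 (0.00 over all genes), and 22 of the 25 had both UBS libraries above both UBGS libraries, beside 25.4% of all genes. The glutamate transporter Slc1a3 stood at 104 and 103 against 67.5 and 67.5 CPM (log2 0.62, SE 0.06, edgeR adjusted p = 0.0318), and Mfge8, a bridge for engulfed particles, at 22.7 and 23.9 against 13.2 and 12.3 CPM (log2 0.87, SE 0.09, edgeR adjusted p = 0.0397). Both calls were lost without UBGS replicate 8 (edgeR adjusted p = 0.303 and 0.253) or 9 (0.2 and 0.275), with library totals (0.0819 and 0.101) and against a 1.5-fold minimum.

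Other abundant members did not pass the threshold. The glutamate transporter Slc1a2 stood at 2215 and 2114 against 1492 and 1507 CPM (log2 0.53, edgeR adjusted p = 0.0515) and glutamine synthetase Glul at 363 and 319 against 266 and 262 CPM (log2 0.37, edgeR adjusted p = 0.153). The lipid carrier Apoe stood at 105 and 112 against 69.3 and 59.01 CPM (log2 0.76, edgeR adjusted p = 0.0585). The intermediate filament gene Gfap stood at 57.3 and 55.6 against 45.5 and 46.01 CPM (log2 0.30, edgeR adjusted p = 0.164), and Aldh1l1 at 3.77 and 4.62 against 5.07 and 4.04 CPM with overlapping libraries (log2 −0.11). The summed level of the list was 4699.9 and 4547 CPM in UBS and 3444 and 3426 CPM in UBGS libraries. DESeq2 called 12 of the 25, all higher in UBS, beside 0.961% of all genes. Of 20 genes of reactive astrocytes, 0 were called by edgeR, 5 were higher and 2 lower at an unadjusted p under 0.05 (8.73% and 8.05% of all genes), and 2 were called by DESeq2, C4b higher and Iigp1 lower. The median was 0.25, 0.15 without UBGS replicate 9 and 0.12 with limma-voom.

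Called genes outside the list include Plpp3 and Etnppl, which are known from astrocytes and are named here after their values were seen. Plpp3, a lipid phosphatase, stood at 66.4 and 59.3 against 36.2 and 37.3 CPM (log2 0.77, edgeR adjusted p = 0.0397), and Etnppl, which breaks down phosphoethanolamine, at 3.74 and 3.92 against 0.724 and 0.803 CPM (log2 2.33, edgeR adjusted p = 0.0272). Both were higher in each UBS library, and neither was called without UBGS replicate 8 (edgeR adjusted p = 0.241 and 0.189) or 9 (0.0991 and 0.0684) or against a 1.5-fold minimum (0.719 and 0.0594). Plpp3 was not called with library totals either (0.0531).

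Counts for other glial cells stand beside 8.73% of all genes higher and 8.05% lower at an unadjusted p under 0.05, and 0.961% higher and 0.602% lower by DESeq2. Of 22 microglia genes, 0 were called by edgeR, 14 were higher and 1 lower at an unadjusted p under 0.05, and DESeq2 called 4, all higher (median 0.57). The growth factor receptor gene Csf1r stood at 19.2 and 15.6 against 13.8 and 14.3 CPM (edgeR adjusted p = 0.297). Complement C1qb stood at 12.1 and 11.4 against 7.26 and 6.68 CPM (log2 0.75, edgeR adjusted p = 0.105), whereas the homeostatic marker Cx3cr1 stood at 10.2 and 8.71 against 9.99 and 9.48 CPM (log2 −0.04). Of 22 oligodendrocyte genes, 0 were called by edgeR, 9 had an unadjusted p under 0.05, all higher, and DESeq2 called 2, Trf and Enpp2 (median 0.16). The myelin gene Mbp stood at 326 and 306 against 275 and 274 CPM (log2 0.21, edgeR adjusted p = 0.217). Of 13 precursor genes tested, 0 were called by edgeR or DESeq2 and 1 had an unadjusted p under 0.05, with a median of 0.04 (up to 0.09, without UBGS replicate 9).

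Choroid plexus and ependymal genes all had positive fold changes, 16 of 16 tested, with a median of 0.46 that was 0.22 without UBS replicate 8. None was called by edgeR, 10 were higher at an unadjusted p under 0.05 (8.73% of all genes), and DESeq2 called Ttr and Slc4a5, both higher (0.961% of all genes). Ttr, which encodes transthyretin and is a choroid plexus product, stood at 1183 and 1404 against 818 and 799 CPM (log2 0.68, edgeR adjusted p = 0.081), and Enpp2, which that tissue shares with oligodendrocytes, at 336 and 401 against 262 and 272 CPM. Of 20 endothelial and mural genes, 0 were called by edgeR or DESeq2 and 4 were higher at an unadjusted p under 0.05. Their median was 0.24, and it was 0.16 without UBS replicate 7 and 0.57 without UBS replicate 8. Of 12 meningeal fibroblast genes, 0 were called by either and 2 were higher at an unadjusted p under 0.05 (median 0.04, and 0.02 to 0.10 over fits without UBGS replicate 8 or 9). The beta globin gene Hbb-bs stood at 97.7 and 101 against 80.2 and 79.3 CPM (edgeR adjusted p = 0.138), and of 6 blood genes 0 were called by edgeR, 4 were higher at an unadjusted p under 0.05 and DESeq2 called 3, all higher in UBS (median 0.35). The summed level of the choroid plexus and ependymal list was 1332 and 1595 CPM in UBS and 941 and 924 CPM in UBGS libraries. That of the microglia list was 167 and 142 against 109 and 111 CPM. These levels lay in the same direction as the astrocyte genes and Gad2, and their part in the other differences was not tested.

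No gene of the excitatory neuron and region lists was called by edgeR. Of 29 excitatory neuron genes, 7 had an unadjusted p under 0.05, beside 16.8% of all genes. The median was 0.01, between −0.05 (without UBGS replicate 9) and 0.08 (without UBGS replicate 8), so its sign was not stable. Slc17a7, the vesicular glutamate transporter, stood at 461 and 428 against 460.4 and 429 CPM with overlapping libraries (log2 0.00), and Camk2a, the most abundant, at 4173 and 3053 against 2461 and 2357 CPM, with the 2 UBS libraries far apart (log2 0.58, edgeR adjusted p = 0.179, called by DESeq2). Medians were 0.06 for 16 dentate granule cell genes, −0.13 for 12 CA1 genes and −0.07 for 16 CA2 and CA3 genes, with 3, 2 and 0 genes higher and 1, 4 and 4 lower at an unadjusted p under 0.05 (8.73% and 8.05% of all genes). The granule cell median was 0.01 without UBGS replicate 9, and the CA2 and CA3 median −0.17 without UBS replicate 8 and −0.11 without UBGS replicate 8. DESeq2 called 0, 1 (Fibcd1, higher) and 1 (Iyd, lower). Genes of neighbouring cortex, subiculum and thalamus had a median of −0.03 over 19 tested (from −0.12 without UBS replicate 8 to −0.01 without UBS replicate 7), 5 unadjusted p-values under 0.05 and 1 DESeq2 call, Slc17a6. Immediate early genes, a readout of recent activity, had a median of −0.06 over 22 tested (0.04 without UBGS replicate 8 and −0.19 without UBGS replicate 9), with 0 calls by edgeR or DESeq2 and 2 unadjusted p-values under 0.05. Egr1 among them stood at 95.4 and 84.4 against 114 and 101 CPM and the heat shock gene Hspa8 at 597 and 598 against 626 and 639 CPM (edgeR adjusted p = 0.257 and 0.509).

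**Figure D4:**
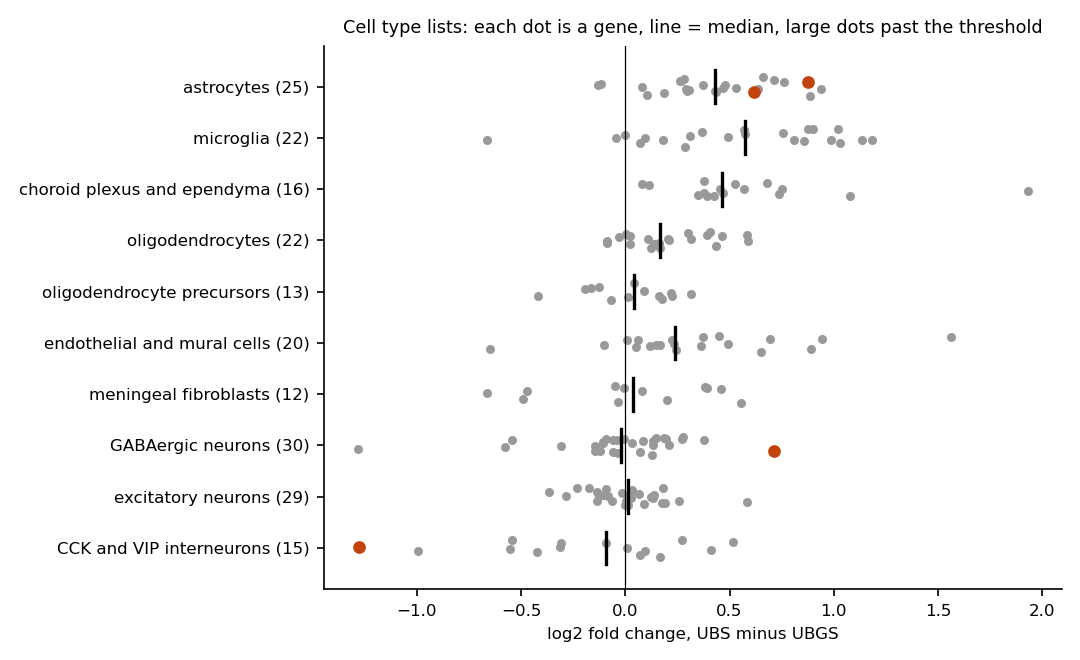
Log2 fold change (UBS minus UBGS, horizontal axis) of the tested genes in 10 cell type lists, with 1 dot per gene, a line at each median and large coloured dots for called genes; the number of tested genes is in brackets. Medians of astrocytes (0.43), microglia (0.57) and choroid plexus and ependyma (0.46) lie to the right of 0, and those of the neuronal lists between −0.09 and 0.01.

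Processed pseudogenes with parent genes elsewhere were also among the calls lower in UBS. Rpl34-ps2 stood at 0.645 and 0.657 against 3.23 and 3.13 CPM and Gm10154, another copy of the ribosomal protein gene Rpl34, at 1.47 and 1.44 against 6.41 and 6.21 CPM (log2 −2.28 and −2.12, edgeR adjusted p = 0.0322 and 0.0143). Rpl34 itself stood at 25.9 and 26.3 against 20.6 and 19.9 CPM (edgeR adjusted p = 0.165). Gm11814, related to lactate dehydrogenase Ldha, stood at 0.335 and 0.288 against 4.36 and 5.36 CPM (log2 −3.96, edgeR adjusted p = 0.00538). Of these 3 pseudogenes, Gm11814 was called without UBGS replicate 8, and Gm11814 and Gm10154 were called without UBGS replicate 9, with library totals and against a 1.5-fold minimum. Counts of such copies depend on how reads with several matches were placed and are uncertain.

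The remaining called genes lay on several chromosomes. Lower in UBS were Arpc3, a subunit of the actin-branching Arp2/3 complex (19.01 and 15.9 against 36.4 and 35.1 CPM, log2 −1.03), the zinc finger gene Zfp605 (12.3 and 11.6 against 24.1 and 25.8 CPM, −1.06) and Filip1, a filamin-binding protein gene (14.4 and 12.9 against 26.8 and 27.6 CPM, −0.99). Swi5, a recombination gene, and Wdfy1, an endosomal protein gene, were lower by less, at −0.80 and −0.76, and an unnamed gene, ENSMUSG00000078821, stood at −0.90. Higher in UBS were AA465934 (10.8 and 12.04 against 1.51 and 1.58 CPM, log2 2.88), Flnc, the filamin C gene (2.99 and 2.51 against 0.579 and 0.543 CPM, 2.29), Ighm, the constant region of immunoglobulin M (14.8 and 12.4 against 5.73 and 5.62 CPM, 1.26), and Pbxip1 (21.05 and 18 against 9.24 and 9.42 CPM, 1.06). Rassf2, Prelp and 1500004A13Rik were higher as well, at 0.88, 0.80 and 0.62. Their edgeR adjusted p-values ran from 0.00183 (AA465934) to 0.0469 (Flnc), and of these 13 genes, AA465934 alone was called in every setting tried.

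The bound libraries, scaled together with the unbound ones, are given as a description and belong to neither series. Cwc22 stood at 43.1, 48.2 and 49.8 CPM in bound libraries 1 to 3, between 17.6 and 16.2 CPM in UBS and 133 and 137 CPM in UBGS on the same scale. A copy held 39.6%, 38.3% and 41.2% of the counts of Cwc22 in them, which again lies between the series. Mid1, at 15.03, 15.9 and 16.5 CPM, lay between 6.58 and 7.71 and 29.3 and 27.8 CPM. Gabra2, at 37.4, 33.01 and 33.97 CPM, was nearer to the UBS level of 39.6 and 42.6 CPM than to the UBGS level of 73.04 and 73.3 CPM, and BC023719, at 0.479, 0.4 and 0.182 CPM, nearer to the UBGS level of 0.329 and 0.321 CPM than to 8.37 and 9.65 CPM in UBS. mt-Nd3 had only 4, 6 and 14 counts in the bound libraries, or 0.0387%, 0.0599% and 0.186% of mitochondrial protein-coding counts, with exact intervals of 0.0106 to 0.0992, 0.0220 to 0.130 and 0.102 to 0.312. Bound RNA comes from the pulled-down ribosomes, so that levels in it and in unbound RNA also differ by cell type and by the pull-down.

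**Figure D5:**
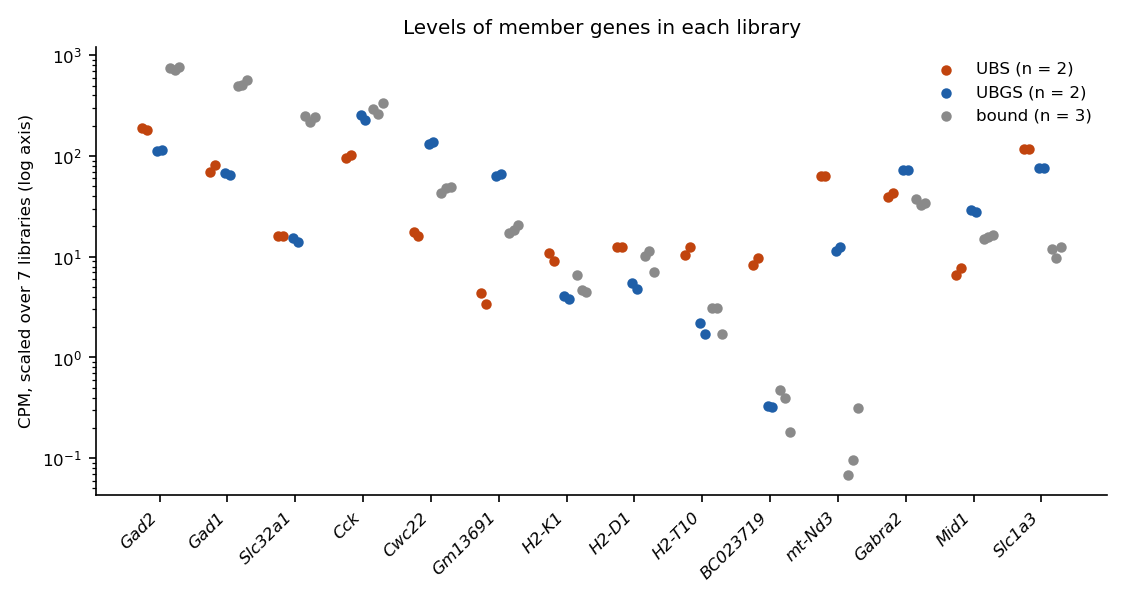
CPM of 14 genes (vertical log axis, scaled over all 7 libraries) in each UBS, UBGS and bound library, with 1 dot per library. The UBS and UBGS dots are far apart for Cwc22, Gm13691, BC023719 and mt-Nd3 and close together for Gad1 and Slc32a1, and the bound dots lie between the series for Cwc22, Gm13691 and Mid1.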

How the data were processed

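The authors deposited raw counts: 1 table with a whole number of reads for each of 39017 Ensembl gene IDs in each of 7 libraries. STAR 2.5.3a, HTSeq (version not stated) and the mm10 build were used, per the submitters' processing notes. Counts of overlapping and copied genes are uncertain, because strand setting and handling of multiply matched reads, like the annotation release, are not given in the sources. IDs were matched to GENCODE M21, which named 37607. Of the tested genes, 62 had counts equal to those of another in all 7 libraries.

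The 4 unbound libraries were filtered with filterByExpr, scaled by TMM and compared with the quasi-likelihood test of edgeR 4.0.16 in R 4.3.3 (robust fit, Benjamini-Hochberg adjustment over 19256 genes, threshold 0.05, no minimum fold), without a block. CPM values and the standard error of each log2 fold change were computed here. Scripts were tested on simulated data. DESeq2 1.42.0, limma-voom (limma 3.58.1), other scalings, other filters and each library left out were alternatives. Cwc22 copies were found with blastn 2.17.0 as transcripts with at least 90% identity over at least 200 bases. Named genes are the members, every called gene with a mean of at least 1 CPM, neighbours of the loci, and the 2 most abundant and all called members of lists; others are named where a count or a pathway role asks for it and were chosen after their values were seen. The members and gene lists were chosen with earlier results of these data known. Some genes, called ones among them, are not reported here.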

Additional observations from a re-analysis of the deposited data

How the results depend on the processing

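The count of 44 genes became 301 with DESeq2 (185 higher, 116 lower in UBS), 22 with library totals (7 higher, 15 lower), 104 without a low-count filter (60 higher, 44 lower) and 16 against a 1.5-fold minimum (4 higher, 12 lower); limma-voom gave 48 and DESeq2 size factors in edgeR 44. Leaving out a library gave 16 to 7389. Without mitochondria-encoded genes 44 were called, 43 of them shared. No single gene whose fold change was recomputed changed direction in these settings. Gad2 did not pass against the 1.5-fold minimum (0.71) or without UBGS replicate 8 or 9 (range over libraries left out 0.69 to 0.74), and Gad1 passed without UBS replicate 7 (range 0.066 to 0.29). H2-D1 did not pass with library totals (1.27), the 1.5-fold minimum (1.28) or without UBGS replicate 8 or 9 (range 1.20 to 1.37). H2-K1 did not pass with limma-voom (1.33), library totals (1.33), the 1.5-fold minimum (1.34) or without UBGS replicate 8 or 9 (range 1.22 to 1.46).

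Medians moved for precursors with limma-voom (0.015; left-out range 0.028 to 0.089) and for H2 genes with limma-voom (0.17) and without a filter (0.74; left-out range 0.30 to 0.51). Signs of the medians of GABAergic neurons, excitatory neurons and immediate early genes changed in fits with a library left out (ranges −0.031 to 0.076, −0.047 to 0.080 and −0.19 to 0.041), and that of excitatory neurons also with limma-voom (−0.0012) and library totals (−0.0039). Interferon response stood at 0.24 and reactive astrocytes at 0.12 with limma-voom, and CCK and VIP interneurons at −0.21 without a filter. Left-out ranges were 0.31 to 0.46 for astrocytes, 0.15 to 0.24 for oligodendrocytes and 0.53 to 0.72 for microglia, and 0.22 to 0.60 for choroid plexus, 0.16 to 0.57 for endothelial and mural and −0.32 to −0.056 for CCK and VIP interneuron genes. Calls near Gad2 became 1 within 10 Mb and 2 with DESeq2, near Cwc22 7 and 1, near H2-K1 0 within 1 Mb and 10 with DESeq2, and near H2-D1 11 with DESeq2. The cause of these changes was not tested.

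No paired analysis was possible because the series share only replicate number 8. Whether depth or the spread between libraries limits the calls was not tested.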
